A study of Mus musculus with 18 samples.

Results

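The respiratory chain complexes II, III and IV, the mobile carrier cytochrome c and the ATP synthase, complex V, are built largely from subunits that nuclear genes encode. The mRNAs of 34 such genes, chosen by symbol, were followed in mouse prostates. They are 4 subunits of complex II, 9 of complex III, cytochrome c (Cycs), 6 subunits of complex IV and 14 of complex V, and all 34 were found among the 55469 genes of each table. The symbols are the older ones of the annotation, in which Atp5a1 and Atp5b are the genes now named Atp5f1a and Atp5f1b.

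The libraries came from total RNA of the ventral and lateral prostate lobes of male mice aged 10 or 30 weeks on a background labelled C56NL/6N, with 3 mice in each of 6 groups. WT mice carried an intact Elac2, the gene of the endonuclease that cuts the 3′ trailers of tRNA precursors in the nucleus and in mitochondria. KO mice had lost exon 8 of both Elac2 alleles through a Cre recombinase driven by the probasin promoter (Pb-Cre), which is active in prostate epithelium, so the other cells of the lobes kept the gene. A537T mice carried the Ala537Thr substitution in both alleles of every cell. The comparison of each mutant with the WT of its age asks whether the loss or change of ELAC2, which mitochondria need to process their own transcripts, goes with a change in the nuclear mRNAs for the same complexes. Both mutant groups of an age share their 3 WT libraries, so their values are given side by side. At 10 weeks the WT libraries are 10AF, 11AF and 12AF, those of KO 13AF, 14AF and 15AF, and those of A537T 16AF, 17AF and 18AF. At 30 weeks they are 1AF, 2AF and 3AF for WT, 4AF, 5AF and 6AF for KO, and 7AF, 8AF and 9AF for A537T, and 3 values of a group always stand in this order.

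Complex II, succinate dehydrogenase, oxidises succinate in the citric acid cycle and passes the electrons to ubiquinone. It is the one respiratory complex with no subunit encoded in mitochondrial DNA. Complex III moves electrons from ubiquinol to cytochrome c and pumps protons, and complex IV passes them from cytochrome c to oxygen. Complex V lets the protons flow back and makes ATP. Since complexes III, IV and V also need subunits from mitochondrial DNA, whose transcripts are released by processing at tRNAs, they depend on both genomes. Prostate secretory epithelium is known for exporting citrate rather than oxidising it, whereas skeletal muscle is rich in respiratory complexes.

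Each library held 6569642 to 11225281 recovered reads, which are whole counts taken back from the normalized values. Elac2 itself was counted in every library, and a gene count does not show the loss of exon 8. It had 111 to 119 normalized counts in KO against 124 to 166 in WT at 10 weeks, without overlap, and 98.4 to 151 against 149.6 to 194 at 30 weeks. In A537T it had 158 to 173 at 10 and 114 to 189 at 30 weeks, and it passed the test in no comparison. All 9 prostate epithelium markers had a mean of at least 10 normalized counts in every group. Markers of other tissues were present too. Skeletal muscle genes (32 markers) took 4.13 to 13.4% of the normalized counts of WT libraries at 10 weeks. The KO libraries of this age ranged from 0.0635 to 2.16% and the A537T libraries from 1.61 to 4.57%, and at 30 weeks no library exceeded 0.0765%. The 9 seminal vesicle markers took 6.56 to 10.3% in KO against at most 4.64% in WT at 10 weeks. At 30 weeks they took 6.32 to 9.17% in libraries 4AF, 6AF, 7AF and 9AF and less than 0.001% in the others. These are values of whole lobes, in which fewer cells of a type and less RNA per cell cannot be told apart.

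The start sites of these genes were examined first, because several factors are known to act on genes of this kind: nuclear respiratory factor 1 (NRF1), the ETS family with the GA-binding protein, YY1 and the estrogen-related receptors (ERR). Of the 34 genes, 27 had a promoter sequence in RefSeq for GRCm38.p6, from 250 bases before to 50 bases after the start site. Sdhc, Uqcrc2, Uqcrq, Uqcrb, Cyc1, Cox6c and Atp5a1 had none there. The NRF1 letters GCGCATGCG, searched on both strands, stood in 6 of the 27 genes (22.2%), against 1.95% of all 27025 genes with promoters of this length. These genes are Uqcrc1, Uqcr11, Cycs, Atp5g2, Atp5k and Atp5l. The ETS letters CCGGAAG stood in 10 genes (37.0%, against 9.93% of all genes), the ERR letters AAGGTCA in 5 (18.5%, against 5.38%) and the YY1 letters AAGATGG in 3 (11.1%, against 7.28%). The last letters of the ETS motif, AAG, are the first of the YY1 and ERR motifs, so these can overlap where they adjoin. A match is a description of the sequence, not a bound site.

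The sequences below are shown because the genes they belong to were among those with the lowest log2 fold changes in KO at 10 weeks (Atp5k, Cycs and Atp5l) or stand for complexes II, III and V with the other motifs (Sdhd, Uqcr11 and Atp5g3). This choice does not tie a motif to a fold change. Uqcrc1, Uqcr11 and Atp5g2, which also hold the NRF1 letters, were at -0.92, -0.85 and -0.85, against a median of -0.93 for the 34. Atp5g1, at -1.40, held none of these motifs. Each sequence is printed 5′ to 3′ along its gene, on the reverse strand of GRCm38.p6. It runs from at most 40 bases before the motif to at most 40 after it, stopping at the start site or at an exon. Capitals mark the motif in either direction. The first 3 hold the NRF1 letters. They lie at chr6:50566582-50566670 for Cycs, at chr5:108434440-108434489 for Atp5k, where the palindrome GCGCATGCGC reaches into the first exon and ends the window, and at chr9:44920935-44920992 for Atp5l, whose window also holds the ETS letters in lower case. The ETS letters are marked for Sdhd at chr9:50603850-50603935 and for Uqcr11 at chr10:80406841-80406927, and the ERR letters for Atp5g3 at chr2:73911332-73911418.
Cycs: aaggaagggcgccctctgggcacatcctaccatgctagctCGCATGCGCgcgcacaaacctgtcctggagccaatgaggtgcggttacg
Atp5k: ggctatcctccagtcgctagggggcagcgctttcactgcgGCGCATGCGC
Atp5l: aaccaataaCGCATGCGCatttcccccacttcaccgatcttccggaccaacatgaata
Sdhd: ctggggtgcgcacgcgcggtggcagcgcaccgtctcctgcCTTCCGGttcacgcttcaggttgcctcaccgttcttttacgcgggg
Uqcr11: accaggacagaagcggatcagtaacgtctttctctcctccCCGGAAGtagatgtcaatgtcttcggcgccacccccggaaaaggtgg
Atp5g3: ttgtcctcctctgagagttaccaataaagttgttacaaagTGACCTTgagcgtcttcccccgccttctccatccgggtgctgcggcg

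The levels of the genes were compared with each other in WT prostates at 30 weeks, per length of the shortest principal transcript of the GENCODE annotation. Atp5b, the catalytic beta subunit of the ATP synthase, stood highest at 1817 ± 75.3 normalized counts per kb (SD, n = 3), and Uqcrh, the hinge protein of complex III, followed at 1367 ± 31.5. Sdhc, a membrane anchor of complex II, stood lowest at 109 ± 11.9. By complex, the median level per kb was 273 for complex II, 589.9 for complex III, 165 for Cycs, 770.0 for complex IV and 710.3 for complex V. Complex II and Cycs were therefore at the low end of the per-kb levels, although Sdha, the flavoprotein that binds succinate, reached 469 ± 36.8. Within complex III the large subunits with catalytic or core roles were lower per kb than most of the small ones, with Cyc1 (cytochrome c1) at 177 ± 31.0, Uqcrfs1 (the Rieske iron-sulfur protein) at 274 ± 29.8, Uqcrc2 at 313 ± 18.8 and Uqcrc1 at 328 ± 16.1, against 734 ± 80.1 for Uqcrb and 979.9 ± 27.9 for Uqcr11. The F1 head of complex V spanned from 494 ± 3.92 for Atp5d to the value of Atp5b. Below Atp5b, the next genes in the order were Uqcrh, Atp5h (1325 ± 49.4), Cox6c (1278 ± 179), Atp5a1 (alpha subunit, 1274 ± 63.1), Atp5l (1262 ± 108) and Cox6b1 (1245 ± 146), and each lay within the spread of its neighbour.

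**Figure D1:**
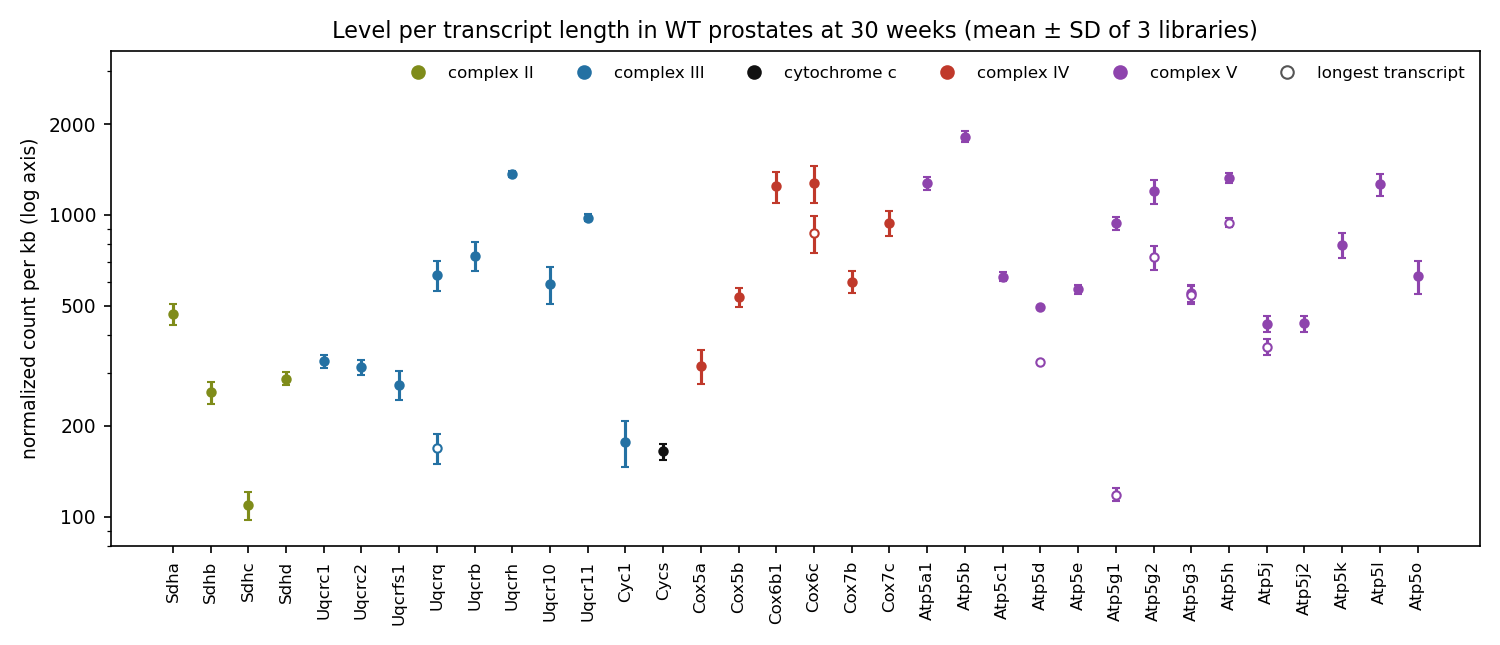
Normalized count per kb of transcript (log axis) of each gene in the 3 WT libraries at 30 weeks, as mean ± SD, coloured by complex. Filled points use the shortest principal transcript and open points the longest where the lengths differ, and Atp5b stands highest at 1817 ± 75.3 and Sdhc lowest at 109 ± 11.9 of the filled points.

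For 8 genes another principal transcript is longer, and the value then depends on the transcript chosen. Atp5g1, at 937 ± 46.9 per kb with the shortest, is at 118 ± 5.93 with the longest, and Uqcrq goes from 634 ± 72.3 to 169 ± 19.2. With the longest transcripts the median of complex III was 328, that of complex IV 736 and that of complex V 625, so the order of the medians, from Cycs over complexes II, III and V to IV, was that of the shortest transcripts. Levels in the rest of the text are normalized counts, not divided by length, and are compared between libraries only.

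Together the 34 genes took 0.293 to 0.492% of all normalized counts in WT at 10 weeks. KO libraries of that age spent 0.218 to 0.250% on them, and A537T libraries 0.278 to 0.307%. At 30 weeks the WT share was 0.231 to 0.265%, that of KO 0.212 to 0.293%, and that of A537T 0.230 to 0.245%. The highest share was that of WT library 12AF at 10 weeks, and the WT libraries of this age spread more widely than any other group.

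In KO prostates at 10 weeks every one of the 34 genes had a lower mean than in WT. Their median log2 fold change was -0.93 against -0.0061 over all 15089 genes tested, and it ran from -1.46 for Atp5k, subunit e of the ATP synthase, to -0.57 for Uqcrq, a small subunit of complex III. Among all genes tested, 50.6% had a fold change under 0. In 30 of the 34 genes all 3 KO libraries lay below all 3 WT libraries, which holds for 14.3% of all genes tested. Sdhc, Uqcrfs1, Uqcrq and Atp5e overlapped.

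No gene of the 34 passed the threshold of 0.05 after Benjamini-Hochberg adjustment in limma, nor did any other gene (0% called), and edgeR called none either. The adjusted p of the 34 ran from 0.183 to 0.313. At an unadjusted limma p under 0.05, 31 of the 34 were lower, against 11.5% of all genes lower and 7.97% higher. DESeq2 on the recovered reads called 19 of them lower, against 3.53% of all genes lower. The 19 were Sdhb, Uqcrc1, Uqcrb, Uqcr10, Cyc1, Cycs, Cox5b, Cox6b1, Cox6c, Cox7c and 9 of the 14 subunits of complex V, and the smallest DESeq2 adjusted p was 0.00508. The limma call turned on WT library 10AF: without it 28 of the 34 genes passed, with adjusted p from 0.0214 (limma), where 9.57% of all genes passed as lower, and the median became -1.18. Without WT library 12AF the median was -0.61, and 0 of the 34 passed.

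**Figure D2:**
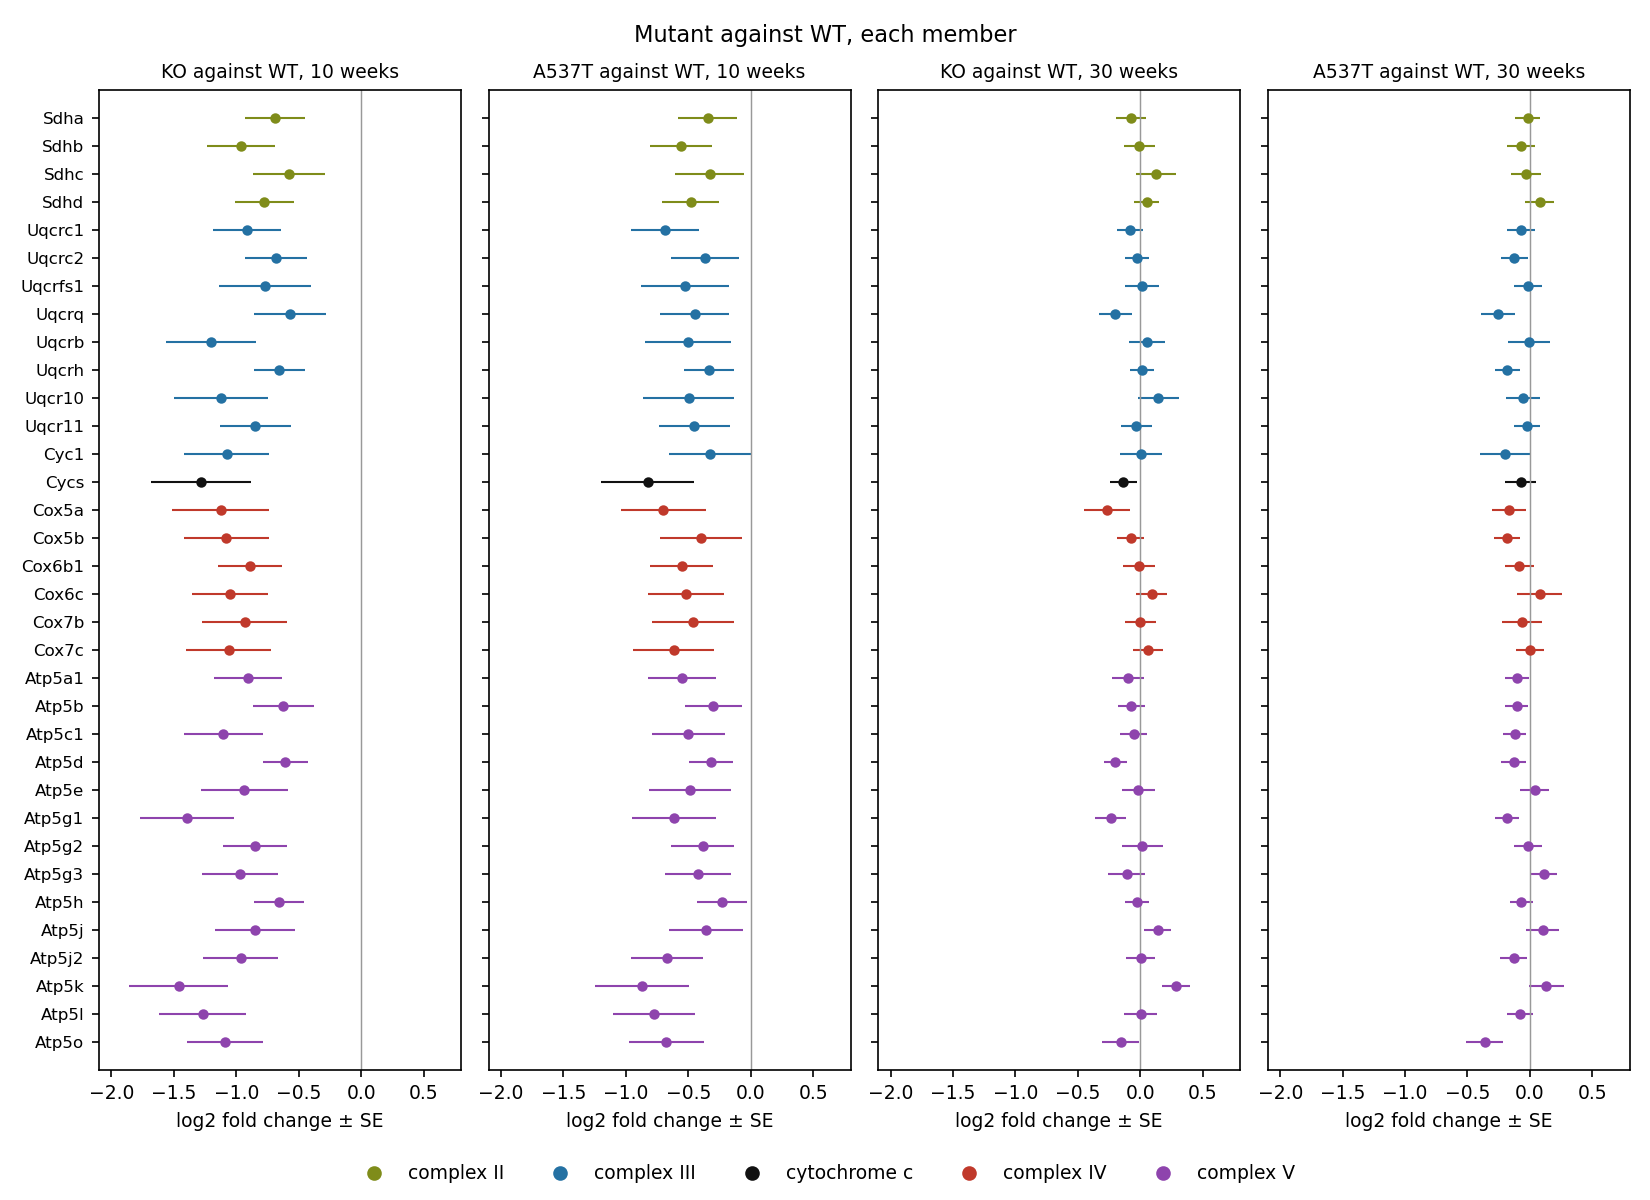
Log2 fold change of each of the 34 genes (points, ± SE from limma, n = 3 per group) in the 4 comparisons, on 1 common axis and coloured by complex. At 10 weeks every point lies below 0, with medians of -0.93 in KO and -0.49 in A537T, while at 30 weeks the points lie on both sides of 0 with medians of -0.013 and -0.070.

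In A537T prostates at 10 weeks the 34 genes also all had a lower mean than in WT, with a median log2 fold change of -0.49 against 0.011 over all 15131 genes tested. The range was -0.87 for Atp5k to -0.23 for Atp5h, subunit d of the peripheral stalk. Over the whole table, 48.5% of genes had a fold change under 0. Sdhb, Sdhd, Uqcrc1, Cox6b1, Atp5j2, Atp5k, Atp5l and Atp5o, 8 of the 34, lay below every WT library in all 3 A537T libraries, against 6.34% of all genes. Uqcrc1 and Atp5l, 2 of the 34, had an unadjusted limma p under 0.05, against 3.67% of genes lower and 2.76% higher, and no gene was called (0% of all genes, with the smallest adjusted p of the 34 at 0.746 in limma). The median was -0.15 without 12AF and -0.76 without 10AF.

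The WT group at 10 weeks was itself uneven. Library 12AF was the highest of the WT libraries for all 34 genes, and the ratio of the highest to the lowest WT library ran from 1.51 for Atp5d to 3.22 for Atp5k. At 30 weeks that ratio ran from 1.01 for Atp5d to 1.43 for Cyc1.

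For complex II the log2 fold changes had a median of -0.73 in KO and -0.41 in A537T at 10 weeks, the value nearest to 0 among the complexes in both lines. Sdha (chr13:74322254-74350280, reverse strand, 15 exons), its flavoprotein, had 1334, 1768 and 2585 normalized counts in the WT libraries and 1232, 1141 and 1025 in KO. All KO libraries were below all WT libraries, and the log2 fold change was -0.69 ± 0.24 (SE, limma adjusted p = 0.206). In the A537T table Sdha had 1400.3, 1820.1 and 2673 in WT and 1584, 1521 and 1379 in A537T, which lay between WT libraries 10AF and 11AF apart from 18AF, with a log2 fold change of -0.34 ± 0.24 (SE, limma adjusted p = 0.767). For Sdhc (chr1:171127165-171150603, reverse strand, 6 exons), an anchor in the inner membrane, WT had 303, 492 and 688 and KO 274, 347 and 325. Here 14AF and 15AF exceeded WT library 10AF, and the log2 fold change of -0.58 ± 0.29 (SE, limma adjusted p = 0.313) was the one nearest to 0 in the complex. A537T had 411, 354 and 385 for Sdhc against 315, 502 and 704 in WT, which overlapped (-0.33 ± 0.28 SE, limma adjusted p = 0.797). Sdhb, the iron-sulfur subunit, and Sdhd, the other anchor, had log2 fold changes of -0.96 and -0.78 in KO and -0.56 and -0.48 in A537T, without overlap in either line.

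Complex III had a median of -0.85 in KO and -0.45 in A537T. Uqcrh (chr4:116066965-116075071, reverse strand, 4 exons), which helps cytochrome c1 dock its partner, had 722, 837 and 1218 in WT and 584, 604 and 533 in KO. The groups did not overlap, and the log2 fold change was -0.66 ± 0.20 (SE, limma adjusted p = 0.188). In A537T it had 745, 678 and 771 against 744, 846 and 1237 in WT, where 16AF and 18AF were level with or above 10AF (-0.33 ± 0.20 SE, limma adjusted p = 0.761). Uqcrc2 (chr7:120635176-120659524, forward strand, 14 exons), a core protein on the matrix side, had 654, 813 and 1298 in WT and 524, 582 and 548 in KO, again apart (-0.68 ± 0.25 SE, limma adjusted p = 0.216). Its values in A537T, 858, 755 and 570.0 against 692, 844 and 1353, reached over WT library 11AF in 16AF (-0.37 ± 0.27 SE, limma adjusted p = 0.775). Uqcrq had 283, 301 and 573 in WT and 213, 288 and 243 in KO, with 14AF above 10AF and a log2 fold change of -0.57 ± 0.29 (SE, limma adjusted p = 0.313). At the other end of the complex were Uqcrb at -1.20, Uqcr10 at -1.12 and Cyc1 at -1.08 in KO, while Uqcrc1 at -0.68 was lowest in A537T. Of the 9 genes, 7 were below all WT libraries in KO and 1, Uqcrc1, in A537T.

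Cycs (chr6:50562563-50566538, reverse strand, 3 exons), which carries electrons from complex III to complex IV and starts apoptosis when it leaves mitochondria, had 639.8, 1031 and 1973 in WT and 365, 582 and 423 in KO. The KO libraries lay below the lowest WT library, and the log2 fold change was -1.28 ± 0.40 (SE, limma adjusted p = 0.189). Only Atp5k and Atp5g1 had lower values in KO among the 34. In the A537T table WT had 729, 1153 and 2217 and A537T 751, 734 and 607, so that 16AF and 17AF sat just above 10AF (-0.83 ± 0.37 SE, limma adjusted p = 0.746), and Cycs had the second lowest value of the 34 after Atp5k. Its promoter is among those with the NRF1 letters printed above.

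Complex IV had the lowest median of the complexes in KO, -1.05, and the narrowest range, from -1.13 for Cox5a to -0.89 for Cox6b1. Its median in A537T was -0.53. Cox6b1 (chr7:30616861-30626151, reverse strand, 4 exons), which sits on the intermembrane side where cytochrome c docks, had 700.4, 895 and 1448 in WT and 503, 513 and 556 in KO, without overlap (-0.89 ± 0.26 SE, limma adjusted p = 0.183). In A537T it had 690.5, 689 and 736 against 757, 951 and 1542, also without overlap (-0.55 ± 0.25 SE, limma adjusted p = 0.746). It was the only gene of complex IV to be below all WT libraries in both lines. Cox6c (chr15:35925886-35938246, reverse strand, 4 exons), a subunit with a single membrane span, had 666, 764 and 1532 in WT and 436, 481 and 419.5 in KO (-1.05 ± 0.30 SE, limma adjusted p = 0.183). In A537T it had 584, 622 and 722 against 670.1, 754 and 1519, and 18AF was above 10AF (-0.52 ± 0.30 SE, limma adjusted p = 0.755). All 6 genes of the complex were below every WT library in KO.

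Complex V had a median of -0.95 in KO and -0.49 in A537T, with the widest range of the complexes. Of its 14 genes, 13 were below all WT libraries in KO and 4 (Atp5j2, Atp5k, Atp5l and Atp5o) in A537T. In the catalytic F1 head, Atp5b (chr10:128083273-128090391, forward strand, 10 exons) had 3902, 4161 and 6653 in WT and 2911, 3739 and 2718 in KO. The highest KO library, 14AF, was close to the lowest WT library, 10AF, and the log2 fold change was -0.62 ± 0.24 (SE, limma adjusted p = 0.235). In A537T, Atp5b had 3844, 3979.8 and 4690.2 against 4236, 4435 and 7118, with 18AF above WT libraries 10AF and 11AF (-0.30 ± 0.23 SE, limma adjusted p = 0.779). Atp5a1, whose product alternates with the beta subunit in the head, had 3244, 4363 and 6909 in WT and 2359, 2748 and 2287 in KO, without overlap (-0.91 ± 0.27 SE, limma adjusted p = 0.186). Its A537T values were 3601, 3152 and 3007 against 3384, 4467 and 7103, of which 16AF was above 10AF (-0.55 ± 0.27 SE, limma adjusted p = 0.749). The other F1 genes Atp5c1 (gamma), Atp5d (delta) and Atp5e (epsilon) had log2 fold changes of -1.10, -0.61 and -0.94 in KO.

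The membrane part of complex V held the lowest values. Atp5k (chr5:108433244-108434448, reverse strand, 4 exons), whose product joins ATP synthases into dimers, had 327, 566 and 1053 in WT and 189, 245 and 200.1 in KO. The lowest WT library was above the highest KO library, and the log2 fold change was -1.46 ± 0.40 (SE, limma adjusted p = 0.183). In the A537T table WT had 338, 573 and 1069 and A537T 323, 323 and 322, with the A537T libraries almost equal and all just below 10AF (-0.87 ± 0.38 SE, limma adjusted p = 0.746). Atp5l (subunit g), a neighbour of Atp5k in the dimer, had log2 fold changes of -1.27 in KO and -0.78 in A537T. In the peripheral stalk, which holds the head still, Atp5h, Atp5j and Atp5o had -0.65, -0.85 and -1.09 in KO. Atp5h stood highest of the 34 in A537T, with 638, 631 and 689 against 615, 709 and 1029 in WT and a log2 fold change of -0.23 ± 0.20 (SE, limma adjusted p = 0.802).

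Subunit c, which forms the rotating ring, is encoded by Atp5g1, Atp5g2 and Atp5g3, whose mature proteins are the same. Atp5g1 (chr11:96068852-96075670, reverse strand, 5 exons) had 602, 1079 and 1634 in WT and 368, 523 and 301 in KO at 10 weeks, without overlap, and a log2 fold change of -1.40 ± 0.38 (SE, limma adjusted p = 0.183). Atp5g2 (chr15:102662864-102672352, reverse strand, 4 exons) had 457, 597 and 949 and 340.2, 383 and 338 (-0.85 ± 0.26 SE, limma adjusted p = 0.188). Atp5g3 (chr2:73908447-73911326, reverse strand, 5 exons) had 456, 537.2 and 952 and 312, 397 and 250.4 (-0.97 ± 0.30 SE, limma adjusted p = 0.189). All 3 genes were below every WT library. In the A537T table Atp5g1 had 611, 1075 and 1635 in WT and 762, 659 and 596 in A537T (-0.61 ± 0.34 SE, limma adjusted p = 0.749), Atp5g2 had 470.2, 604 and 963 and 493, 488 and 509 (-0.39 ± 0.25 SE, limma adjusted p = 0.767), and Atp5g3 had 474, 549 and 976 and 485, 486 and 447 (-0.42 ± 0.26 SE, limma adjusted p = 0.765). Each of the 3 overlapped with WT there.

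As a share of the summed counts of the 3 genes, Atp5g1 made up 39.7 to 48.7% in WT and 33.8 to 40.2% in KO at 10 weeks, which overlapped, and 38.4 to 43.8% in A537T. At 30 weeks the WT libraries lay between 37.7 and 37.9%, those of KO between 33.0 and 35.5% and those of A537T between 33.5 and 34.9%, so neither mutant overlapped with WT. The difference of means at 30 weeks was -3.15 ± 0.811 (SE) percentage points in KO and -3.52 ± 0.430 in A537T. In KO the share of Atp5g2 was larger by 3.19 ± 1.51 points, at 37.8 to 40.5% against 33.4 to 37.8% in WT, which do not overlap but nearly touch. In A537T the share of Atp5g3 was larger by 2.94 ± 1.63 points, with overlap. These shares are of counts, not of molecules, and no test was made of them.

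The complexes were then compared with each other by the mean log2(normalized count + 1) of their genes in each library. In the table of KO at 10 weeks, complex II had 8.97, 9.33 and 9.95 in WT and 8.72, 8.75 and 8.53 in KO. Complex III had 8.70, 9.15 and 9.92 in WT and 8.30, 8.55 and 8.31 in KO. Complex IV had 8.98, 9.30 and 10.26 in WT and 8.39, 8.71 and 8.38 in KO. Each complex was thus lowest in WT library 10AF and highest in 12AF, and in each the KO libraries lay below 10AF. Complex V had 9.32, 9.75 and 10.47 in WT and 8.79, 9.10 and 8.71 in KO. The difference KO minus WT was -0.75 ± 0.30 (SE) for complex II, -0.87 ± 0.36 for III, -1.02 ± 0.40 for IV and -0.98 ± 0.36 for V. The SEs, which share the spread of the WT libraries, exceed the gaps between the complexes. In A537T at 10 weeks the differences were -0.43 ± 0.28, -0.46 ± 0.36, -0.54 ± 0.38 and -0.51 ± 0.33, for complexes II, III, IV and V, and only complex IV did not overlap with WT.

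**Figure D3:**
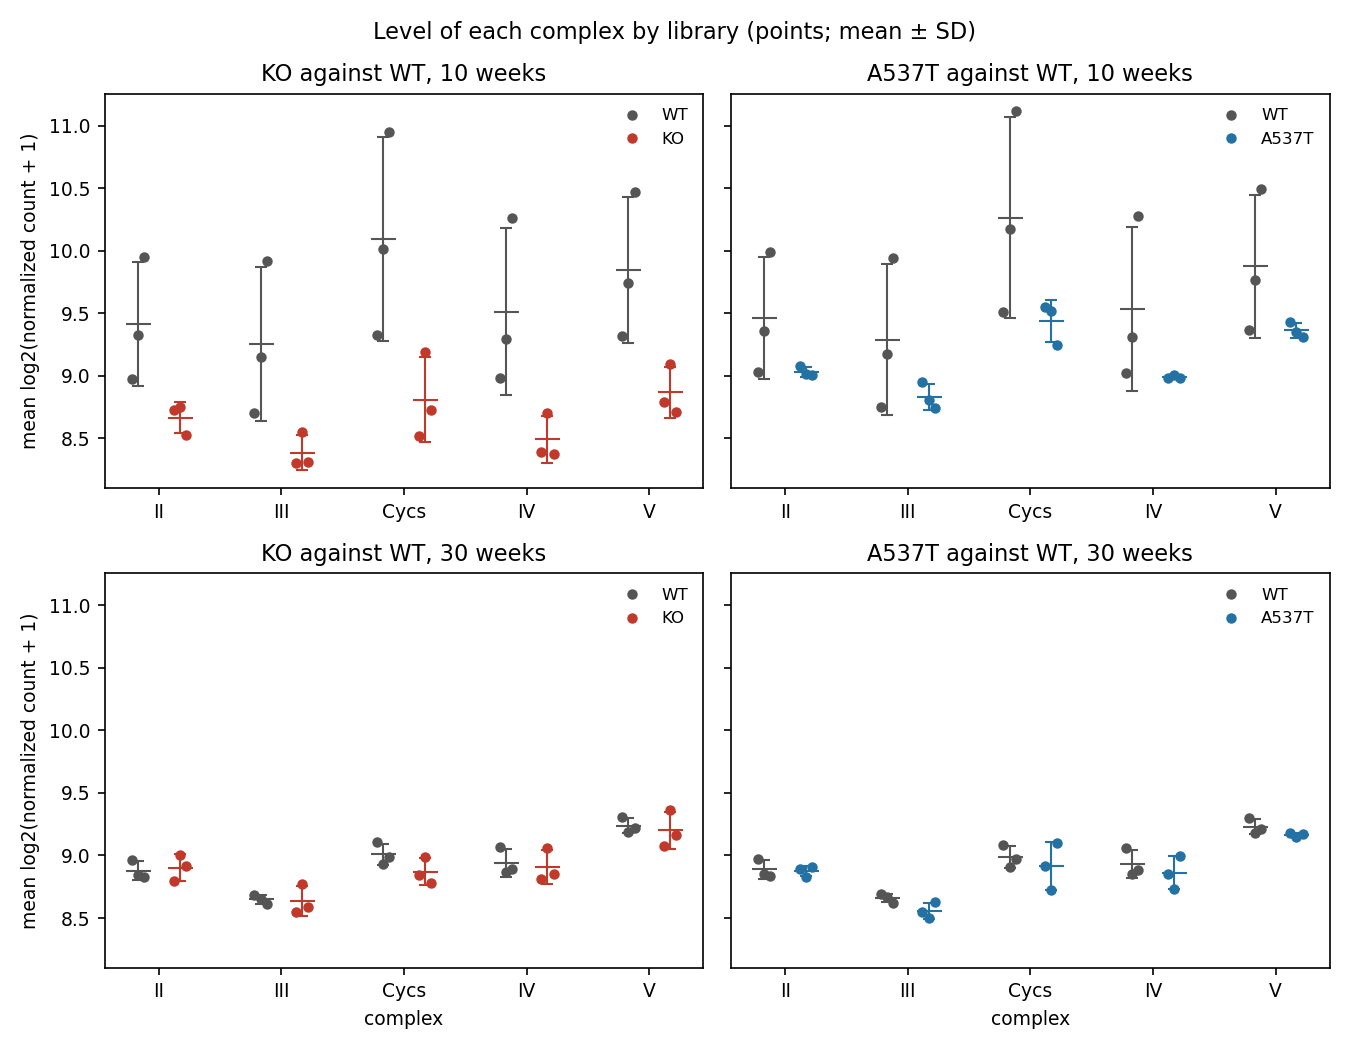
Mean log2(normalized count + 1) of the genes of each complex in each library (points), with the mean ± SD of 3 libraries per group, in the 4 tables. At 10 weeks the WT points spread widely (complex V from 9.32 to 10.47) and every KO point lies below them, while at 30 weeks the groups overlap apart from complex V in A537T.

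The spread that all complexes share was taken out by subtracting, in each library, the mean log2 level of the other genes of the 34 from that of a complex. A scaling common to a library cancels in this value, but a difference in tissue content need not. In WT libraries 10AF, 11AF and 12AF, muscle genes took 4.13, 6.88 and 13.4% of counts. Complex II relative to the others was -0.093, -0.16 and -0.33 in them, and Cycs 0.28, 0.56 and 0.73, in the order of these shares. Complexes III, IV and V did not keep that order. The part of muscle content in the relative values was not tested. In KO at 10 weeks complex III stood at -0.40 to -0.29 relative to the others and in WT at -0.48 to -0.43, a difference of 0.093 ± 0.037 (SE) without overlap. Complex II was higher relative to the others by 0.21 ± 0.11, but its KO range of -0.11 to 0.17 overlapped with the WT range of -0.33 to -0.093. Complex IV and complex V differed by -0.10 ± 0.069 and -0.064 ± 0.039, and Cycs by -0.35 ± 0.18, all with overlap.

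**Figure D4:**
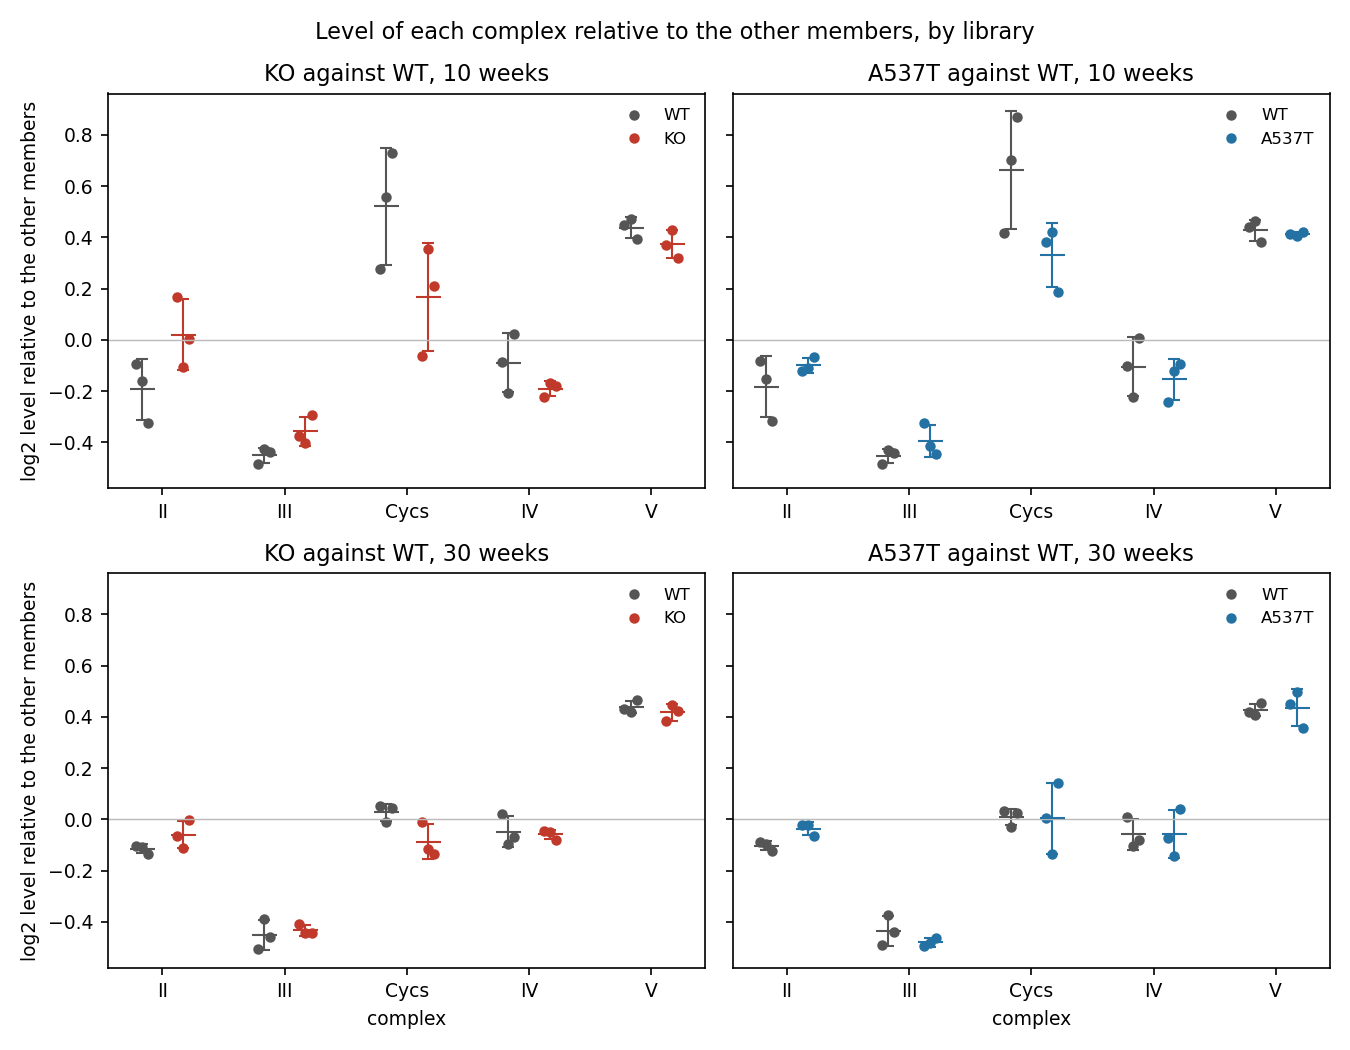
Level of each complex relative to the mean of the other genes of the 34, in log2 units per library (points) with the mean ± SD of 3 libraries per group, in the 4 tables. Groups lie apart only for complex III in KO at 10 weeks (-0.40 to -0.29 against -0.48 to -0.43 in WT) and complex II in A537T at 30 weeks. No test was made of these values.

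In A537T at 10 weeks the relative differences were 0.084 ± 0.071 for complex II, 0.059 ± 0.040 for III, -0.048 ± 0.081 for IV, -0.015 ± 0.024 for V and -0.33 ± 0.15 for Cycs, all with overlap. At 30 weeks complex II was higher relative to the others in A537T by 0.067 ± 0.017, without overlap, and in KO by 0.056 ± 0.033, with overlap. The mean of complex II relative to the others was thus above that of WT in all 4 comparisons, of which those of an age share their WT libraries. Within complex V, the 5 F1 genes minus the other 9 gave 1.18 to 1.25 in KO and 0.90 to 1.11 in WT at 10 weeks, a difference of 0.22 ± 0.064 without overlap. Among the WT libraries this value was 1.11 in 10AF, 0.997 in 11AF and 0.90 in 12AF, falling as their muscle shares rose. The F1 difference from WT was 0.13 ± 0.062 in A537T at 10 weeks. There 1.13 to 1.17 in A537T and 0.92 to 1.12 in WT did not overlap but nearly touched. It was -0.079 ± 0.027 in KO at 30 weeks, in the other direction and without overlap. In A537T at 30 weeks it was -0.030 ± 0.066, with overlap. No test was made of these relative values, and groups this small can lie apart without a difference between them.

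The level of the 34 genes went with the share of skeletal muscle genes at 10 weeks. The mean log2 level over the 34 was 9.06 in 10AF, 9.47 in 11AF and 10.24 in 12AF, whose muscle shares were 4.13, 6.88 and 13.4%. In KO it was 8.53 in 15AF, 8.58 in 13AF and 8.84 in 14AF, at 0.0635, 0.0690 and 2.16%. In A537T it was 9.07 in 18AF, 9.11 in 17AF and 9.19 in 16AF, at 1.61, 3.38 and 4.57%. The order of the levels was that of the muscle shares in each of the 3 groups.

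All 32 muscle markers had log2 fold changes under 0 in KO, -6.87 in the median, and 31 of them were below every WT library. The muscle shares of KO and WT did not overlap, so the genotype and the muscle content cannot be told apart in these 6 libraries. With the log2 summed level of the muscle markers as a covariate, the median log2 fold change of the 34 genes was -0.37 in KO, with 33 of 34 under 0 and 0 at an unadjusted limma p under 0.05. In A537T all 32 muscle markers also had log2 fold changes under 0, -1.68 in the median. The muscle shares of A537T overlapped with those of WT only in 16AF, above 10AF. With the covariate the median of the 34 genes in A537T was 0.020, with 14 of 34 under 0. With the covariate the medians of complexes II, III, IV and V in KO were -0.43, -0.33, -0.37 and -0.37, so that complex II was then the lowest and no longer the one nearest to 0. Scaling every library to the same total moved the median of all genes at 10 weeks to 0.20 in KO and 0.15 in A537T, and that of the 34 to -0.72 and -0.35.

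**Figure D5:**
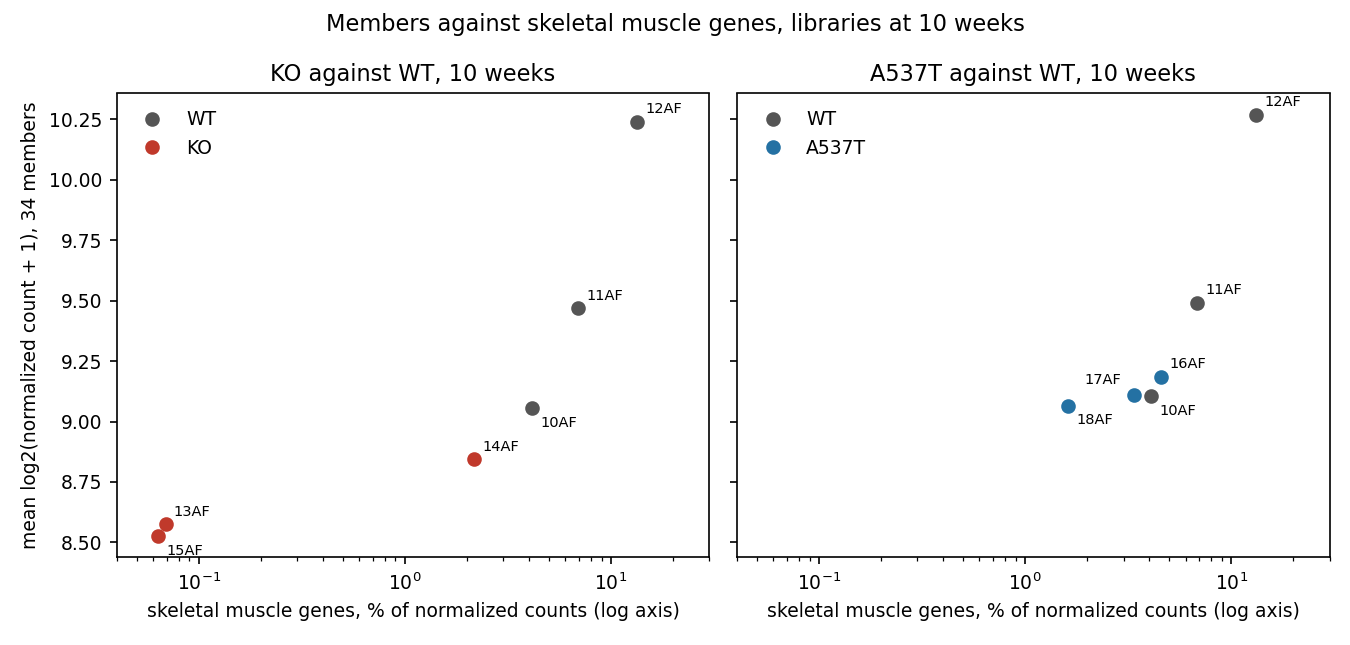
Mean log2(normalized count + 1) of the 34 genes against the share of normalized counts taken by the 32 skeletal muscle markers (percent, log axis), 1 labelled point per library at 10 weeks, with the KO table on the left and the A537T table on the right. WT library 12AF is highest on both axes (13.4%, 10.24) and KO libraries 13AF and 15AF are lowest.

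Other cell types varied with the 10-week values too. The 9 prostate epithelium markers took 3.68, 12.5 and 13.3% of counts in WT, 3.84, 2.55 and 0.459% in KO and 10.3, 8.99 and 7.87% in A537T. Their order was that of the levels of the 34 genes in WT and in A537T, as for muscle, but not in KO, and the KO libraries overlapped with WT only in 13AF, above 10AF. Over these markers 6 of 9 had lower means in KO (median log2 fold change -0.16) and 4 of 9 in A537T (0.059). Seminal vesicle markers ran the other way in WT, where 10AF, 11AF and 12AF had 4.64, 1.77 and 0.000818% of counts in them, and all 9 had higher means in KO, whose shares lay above those of WT. Of the 7 smooth muscle markers, 6 had higher means in each line, with shares of 0.157 to 0.499% in WT, 0.401 to 0.539% for KO and 0.278 to 0.870% for A537T, which overlapped. The 6 adipocyte markers differed between the lines: all had lower means in KO, at 0.0124 to 0.0385% against 0.0297 to 0.0465% in WT, and all had higher means in A537T, at 0.0530 to 0.0585% against 0.0292 to 0.0459% in WT and without overlap. The part of these cell types in the 10-week values was not tested.

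At 30 weeks, where muscle genes took little of any library, the log2 fold changes of the 34 genes lay around 0 in both lines. In KO their median log2 fold change was -0.013, against -0.0067 for all 14729 genes tested, and it ran from -0.27 for Cox5a to 0.29 for Atp5k. Of the 34, 19 were under 0, against 50.9% of all genes. In 1 gene, Atp5d, all KO libraries were below all WT libraries, against 8.41% of all genes. No gene was called (0% of all), and at an unadjusted limma p under 0.05 there were 0 lower and 1 higher, against 5.41% and 5.56% of all genes. The higher one was Atp5k, the gene with the lowest value at 10 weeks: WT had 322, 265 and 298 and KO 353, 371 and 354, every KO library above every WT library, with a log2 fold change of 0.29 ± 0.11 (SE, limma adjusted p = 0.438). Cox5a, which lies on the matrix side of complex IV, had 211, 225 and 175 in WT and 134, 200.5 and 177 in KO, with overlap (-0.27 ± 0.19 SE, limma adjusted p = 0.609).

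In A537T at 30 weeks 27 of the 34 genes were under 0, against 50.7% of all genes, but by little, with a median of -0.070. The range was -0.36 for Atp5o to 0.13 for Atp5k. Uqcrh, Cox5b, Atp5c1, Atp5d, Atp5g1 and Atp5o, 6 of the 34, were below every WT library, against 9.4% of all genes. No gene was called (0% of all), and at an unadjusted limma p under 0.05 there were 1 lower and 0 higher, against 6.28% and 7.35%. The lower one was Atp5o, the stalk protein that confers sensitivity to oligomycin. WT had 596, 481 and 481 and A537T 423, 340.3 and 450.2, with a log2 fold change of -0.36 ± 0.15 (SE, limma adjusted p = 0.360). Atp5k had 331, 273 and 308 in WT and 339, 290.2 and 374 in A537T, with overlap (0.13 ± 0.14 SE, limma adjusted p = 0.679). Its log2 fold changes were thus above 0 in both lines at 30 weeks and under 0 in both at 10 weeks, although with the seminal vesicle markers as a covariate the A537T value at 30 weeks was -0.021.

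By complex, the medians at 30 weeks were 0.022 for complex II, 0.0066 for III, -0.0033 for IV and -0.041 for V in KO, and -0.025, -0.069, -0.075 and -0.090 in A537T. In complex II, Sdha had 1478, 1269 and 1335 in WT and 1326, 1418 and 1138 in KO (-0.076 ± 0.12 SE, limma adjusted p = 0.831), and 1465, 1257 and 1326 and 1273, 1324 and 1395 in the A537T table (-0.018 ± 0.099 SE, limma adjusted p = 0.944). Sdhc had 385, 344 and 309.9 in WT and 314, 449 and 382 in KO (0.13 ± 0.16 SE, limma adjusted p = 0.785), and 396, 353 and 319.7 and 362, 352 and 329 in the A537T table (-0.033 ± 0.12 SE, limma adjusted p = 0.918). Both overlapped with WT in both lines. In complex III, Uqcrh had 759, 756 and 728 in WT and 712, 823 and 736 in KO, which overlapped (0.016 ± 0.097 SE, limma adjusted p = 0.963), and 765, 762 and 735 against 659.9, 726 and 614 in the A537T table, where each A537T library was below WT (-0.18 ± 0.10 SE, limma adjusted p = 0.455). Uqcrc2 had 570.1, 635 and 576 in WT and 577, 595 and 576 in KO (-0.026 ± 0.094 SE, limma adjusted p = 0.933), and 570.2, 635 and 579 and 567, 494 and 578 in the A537T table (-0.12 ± 0.11 SE, limma adjusted p = 0.617). The KO libraries of Uqcrc2 all lay within the WT range.

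Cycs had 549, 487 and 507 in WT and 458, 507 and 439.7 in KO at 30 weeks (-0.14 ± 0.11 SE, limma adjusted p = 0.650), and 541, 481 and 501 and 482, 421 and 549 in the A537T table (-0.075 ± 0.13 SE, limma adjusted p = 0.811), where 8AF was the lowest and 9AF the highest of the 6 libraries. In complex IV, Cox6b1 had 849, 672 and 787 in WT and 701, 853 and 739 in KO (-0.0080 ± 0.13 SE, limma adjusted p = 0.988), and 850.2, 671 and 789.8 and 712, 695 and 760.2 in the A537T table (-0.086 ± 0.12 SE, limma adjusted p = 0.758). Cox6c had 741, 563 and 625 in WT and 694, 709 and 639.7 in KO (0.090 ± 0.13 SE, limma adjusted p = 0.810), and 739, 562 and 625 and 706, 536 and 809 in the A537T table (0.079 ± 0.18 SE, limma adjusted p = 0.862). The groups of both genes overlapped, with 5AF highest in KO and 9AF highest in A537T.

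In complex V at 30 weeks, Atp5b had 3625, 3481 and 3336 in WT and 3027, 3687 and 3249.7 in KO (-0.072 ± 0.11 SE, limma adjusted p = 0.825), and 3568, 3423 and 3292 and 3189, 3345 and 3023 in the A537T table (-0.11 ± 0.092 SE, limma adjusted p = 0.620). Atp5a1 had 3324, 3031 and 3087 in WT and 2658, 3462 and 2761 in KO (-0.097 ± 0.13 SE, limma adjusted p = 0.793), and 3310.0, 3014 and 3081 and 2907, 3081 and 2773 in the A537T table (-0.10 ± 0.094 SE, limma adjusted p = 0.640). The catalytic subunits overlapped with WT in both lines. Of the subunit c genes, Atp5g1 had 588, 532 and 555 in WT and 413, 537.5 and 478 in KO, where 5AF was within the WT range (-0.24 ± 0.12 SE, limma adjusted p = 0.520), and 582, 526 and 551 and 464, 508 and 492 in the A537T table, where the groups lay apart (-0.18 ± 0.097 SE, limma adjusted p = 0.445). Atp5g2 had 556, 472 and 557 in WT and 445, 660.1 and 513 in KO (0.015 ± 0.16 SE, limma adjusted p = 0.981), and 554, 470.2 and 556 and 494, 549 and 518 in the A537T table (-0.015 ± 0.11 SE, limma adjusted p = 0.961). Atp5g3 had 408, 409 and 362 in WT and 305, 432 and 365 in KO (-0.11 ± 0.15 SE, limma adjusted p = 0.805), and 400.2, 400.3 and 356 and 428, 397 and 426 in the A537T table (0.11 ± 0.10 SE, limma adjusted p = 0.636). Atp5g1 was thus the one of the 3 that had the lowest log2 fold change in each of the 4 comparisons, of which those of an age share their WT libraries. With the skeletal muscle covariate it was the highest of the 3 in A537T at 10 weeks, at 0.065 against 0.018 for Atp5g2 and 0.058 for Atp5g3.

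The KO libraries without seminal vesicle signal and with it differed at 30 weeks: the mean log2 level of the 34 genes was 9.10 in 5AF and 8.85 and 8.92 in 4AF and 6AF, against 8.94 to 9.05 in WT. In A537T it was 8.85 in 8AF and 8.91 and 8.96 in 7AF and 9AF. The library without the signal was thus the highest in KO and the lowest in A537T. With the seminal vesicle markers as a covariate the median of the 34 was 0.092 in KO and -0.097 in A537T. Prostate epithelium markers had lower means for 9 of 9 in KO, at 4.81 to 14.2% of counts against 7.53 to 14.7% in WT, and for 8 of 9 in A537T, at 4.47 to 14.7%, with overlap in both. Their share was the highest of its group in 5AF and in 8AF, the libraries without seminal vesicle signal. Adipocyte markers had higher means for 6 of 6 in both lines, with overlap in their shares. In A537T, B and plasma cell markers took 0.0234 to 0.104% of counts against 0.00716 to 0.0115% in WT, with all 4 tested of 9 above every WT library. T cell and macrophage markers took 0.00945 to 0.0215% there against 0.00665 to 0.00731%, again without overlap, with all 6 tested of 10 higher and 4 of them above every WT library. The part of these cell types in the 30-week values of the 34 genes was not tested.

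The change against WT was compared between the ages in a single fit of 12 libraries per line. This fit had no marker covariate, and muscle content differed between the ages. Muscle genes took 4.13 to 13.4% of counts in WT and at most 2.16% in KO at 10 weeks, but at most 0.0765% in any library at 30 weeks. The part of muscle content in the change between ages was not tested. In KO the log2 fold change was higher at 30 than at 10 weeks for all 34 genes, by a median of 0.90. Over all 15030 genes tested the median was 0.032, and the share of them above 0 was not counted. The differences of the 34 ran from 0.37 for Uqcrq to 1.75 ± 0.45 for Atp5k. At an unadjusted limma p under 0.05, 27 of the 34 differed, against 7.74% of all 15030 genes in this direction, but none passed after adjustment (smallest adjusted p = 0.243 in limma, with 0% of all genes called). By complex the medians were 0.76 for II, 0.81 for III, 0.97 for IV and 0.93 for V, and Cycs differed by 1.14 ± 0.45. In A537T all 34 were also higher, by a median of 0.45, against 0.0086 over all 15116 genes tested. Of the 34, 1 had an unadjusted p under 0.05 (Atp5k, limma), against 6.48% of all genes, and none passed (smallest adjusted p = 0.394 in limma). Without 12AF, the WT library with the highest levels, the medians were 0.57 in KO and 0.11 in A537T, and without 10AF 1.18 and 0.71.

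The factors that assemble these complexes, and the subunits and associated proteins outside the 34, were read for the same comparisons. In KO at 10 weeks the 4 assembly factors of complex II had a median log2 fold change of -0.27, with 3 under 0, from -0.79 ± 0.43 (SE, limma adjusted p = 0.339) for Sdhaf4 to 0.072 for Sdhaf1. The 6 of complex III had -0.61, with 5 under 0, and Lyrm7, a chaperone of the Rieske protein, had 33.3, 27.5 and 24.5 in WT and 15.5, 7.03 and 10.3 in KO (-1.35 ± 0.38 SE, limma adjusted p = 0.183). The 19 tested of 20 for complex IV had -0.37, with 16 under 0, and Coa7 had 74.3, 76.6 and 90.8 in WT and 33.5, 43.3 and 32.0 in KO (-1.14 ± 0.22 SE, limma adjusted p = 0.183). The 4 of complex V had -0.50, all under 0, with Atpaf1 lowest at -0.63 ± 0.20 (SE, limma adjusted p = 0.189). No gene of these lists passed in any comparison. In KO at 10 weeks the assembly factors of each complex thus had a median nearer to 0 than its subunits. In A537T at 10 weeks the medians were -0.23, -0.47, -0.24 and -0.14 for complexes II to V, and Lyrm7 had 12.8, 14.3 and 11.1 against 38.3, 31.1 and 27.7 (-1.28 ± 0.31 SE, limma adjusted p = 0.746). For complex III this median was slightly lower than that of its subunits. Of the 33 factors tested, 11 were below every WT library in KO and 7 in A537T, against 14.3% and 6.34% of all genes. Among these factors, 4 (Uqcc1, Uqcc3, Lyrm7 and Atpaf1) were so in both lines, which share the WT libraries. The share of all genes that were so in both lines was not counted. At 30 weeks these 4 medians were 0.085, 0.073, -0.011 and 0.24 in KO and -0.16, -0.0039, -0.029 and 0.18 in A537T.

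The 15 other nuclear genes for subunits and associated proteins of complexes IV and V were read next, and 14 were tested. They had a median of -0.85 in KO at 10 weeks, with 13 under 0. They include pairs in which 1 form is made mainly in heart and skeletal muscle. Cox6a2, the muscle form of subunit 6a, had 205, 431 and 871 in WT and 0.859, 129 and 0 in KO, whereas Cox6a1, the general form, had 436, 318 and 349 and 418, 453 and 357 (0.16 ± 0.17 SE, limma adjusted p = 0.598). Cox6a2 was lowest of the list and Cox6a1 the highest, the single value above 0. The muscle form Cox7a1 had 139, 296 and 687 in WT and 17.2, 72.6 and 3.43 in KO, and here the general form Cox7a2 was lower too, with 323, 347 and 576 and 220.0, 256 and 203, below every WT library (-0.83 ± 0.24 SE, limma adjusted p = 0.183). For subunit 8, Cox8b had 109.6, 221 and 442 and 24.9, 55.0 and 0, and the general form Cox8a had 589, 549.7 and 618 and 552, 541 and 453, with overlap (-0.19 ± 0.13 SE, limma adjusted p = 0.424). Cox4i1, the general form of subunit 4, was below every WT library at -0.62 ± 0.18 (SE, limma adjusted p = 0.183). In A537T at 10 weeks the median of the list was -0.49, from -1.47 ± 0.53 (SE, limma adjusted p = 0.746) for Cox7a1, a muscle form of subunit 7a, to 0.10 for Cox6a1. At 30 weeks Cox6a2 had 8.85, 0 and 0 in WT and 0, 5.87 and 3.49 in KO, and Cox6a2, Cox7a1 and Cox8b were too low to be tested. The medians of the 11 then tested were 0.0076 in KO and -0.028 in A537T.

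The 5 mitochondrially encoded entries for complexes III to V had a median of -0.91 in KO at 10 weeks, near that of the 34 nuclear genes, and each was below every WT library. Their values ran from -1.18 ± 0.38 (SE, limma adjusted p = 0.192) for mt-Co3, a subunit of complex IV, to -0.42 ± 0.20 (SE, limma adjusted p = 0.284) for mt-Cytb, the cytochrome b of complex III. In A537T at 10 weeks the median was -0.48, and at 30 weeks it was -0.046 in KO and -0.10 in A537T.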

How the data were processed

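Total RNA of 18 prostates was sequenced with a stranded kit. Per the methods of the study, the authors trimmed reads (Trim Galore 0.4.1, cutadapt 1.18), aligned them with STAR 2.7.3a to GRCm38.p6 with nuclear copies of mitochondrial DNA masked, quantified GENCODE vM24 genes with Salmon and normalized with DESeq2 1.26. The values are a signal, as deposited by the authors: gene counts divided by 1 size factor per library, in 1 table per comparison. Whole counts, called recovered reads here, were taken from the steps of the values (tolerance 0.1, at least 99.99% of values whole). In 4 columns the size factor was too close to 1 to test this. The recovered reads of the 34 genes differed between both tables of a WT library by -7.20 to 11.8% at 10 weeks and by -6.33 to 2.01% at 30 weeks. They are therefore not exact read numbers. Tests of a mutant against WT were kept within a table, but the test of the change between ages joined recovered reads of 2 tables. The authors' comparison tables, with base means, shrunken log2 fold changes, standard errors and s-values, were not used.

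Columns were assigned to groups by the library names listed for each group, with the libraries common to both tables of an age being WT, and carry no replicate number. The main test was limma 3.58.1 (moderated, with a mean trend) in R 4.3.3 on log2(normalized count + 1), over genes with a mean of at least 10, with Benjamini-Hochberg adjustment over all genes and a threshold of 0.05. Fold changes are on this scale. The change between ages was tested in limma on recovered reads of 12 libraries scaled jointly. The p-values measure the spread between 3 mice of a group. Alternatives were edgeR 4.0.16, DESeq2 1.42.0, a pseudocount of 8, minimum means of 1 and 100, other normalizations, no mean trend, marker covariates and leaving out each library. The test was checked on simulated reads in which genes varied independently of each other. That check does not cover differences in tissue content that move many genes together.

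Values per library are given for the 2 genes of each complex with the highest mean, Cycs, the subunit c genes, and the lowest and highest fold change of a comparison; other genes of the 34 are named as counts or by a log2 fold change, chosen after their values were seen. The genes and the lists were chosen with earlier results of these data known. Positions are from GENCODE vM21 (GRCm38), whose IDs matched 55107 of 55469 genes without version. Where a symbol had several entries, the one with the most counts was used. The annotation holds another gene named Atp5o that overlaps the one used on the same strand, and its values were not examined. Counting used strand, and 8 pseudogenes that carry the symbols of the 34 genes had means of at most 0.390. Pseudogenes under other names were not searched. Promoters were read with Python 3.11.15 (numpy 2.4.6, pandas 2.3.3), and figures drawn with matplotlib 3.10.9.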

Additional observations from a re-analysis of the deposited data

How the results depend on the processing

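No paired analysis was possible because the columns of the tables carry no replicate numbers. For the 34 genes limma called 0 in all 4 comparisons, and so did every alternative except DESeq2 in KO at 10 weeks (19 genes) and the fits without 1 library there (0 to 28 genes, the 28 without 10AF). Over all genes limma called 0 and DESeq2 715 (KO, 10 weeks), 90 (A537T, 10 weeks), 285 (KO, 30 weeks) and 476 (A537T, 30 weeks). Without 1 library limma called up to 2886 (without 10AF) and 185 (without 14AF) for KO at 10 weeks, 50 (without 10AF) for A537T at 10 weeks, 944 (without 5AF) for KO at 30 weeks and 1224 (without 8AF) for A537T at 30 weeks. The cause was not tested. At 10 weeks all 34 genes stayed lower in KO under every alternative but the muscle covariate.

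With the skeletal muscle covariate at 10 weeks, the medians in KO were -0.37 for the 34 genes, -0.33 for complex III, -0.31 for cytochrome c, -0.37 for complex IV and -0.37 for complex V, and Uqcrq was at 0.035. In A537T they were 0.020, 0.048, -0.060, -0.053 and 0.011, with complex II at -0.0079, and the sign turned for Atp5g1 (0.065), Atp5g2 (0.018), Atp5g3 (0.058), Atp5h (0.033), Sdha (0.11), Sdhc (0.15) and Uqcrc2 (0.24). The muscle shares of KO and WT do not overlap.

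At 30 weeks, where log2 fold changes were near 0, signs turned easily. With the seminal vesicle covariate the medians in KO were 0.092 for the 34 genes, 0.11 for complex III, 0.14 for complex IV and 0.092 for complex V, and Atp5a1 (0.093), Atp5b (0.055), Atp5g3 (0.092), Cox6b1 (0.13) and Sdha (0.036) turned. In A537T complex III was at -0.15 and cytochrome c at -0.23, and Atp5g2 (0.051), Atp5k (-0.021) and Cox6c (-0.18) turned. Quantile normalization gave -0.0083 for the 34 and -0.0043 for complex V in A537T, and turned Atp5a1 (7.2e-05), Atp5b (0.017), Cox6b1 (0.050) and Uqcrc2 (0.013) in KO and Atp5b (0.019), Atp5g2 (0.036) and Sdha (0.059) in A537T. The same total turned Atp5g2 (0.0085) and Sdha (0.0052) in A537T, and edgeR turned Cox6b1 (0.0030) in KO. Leaving out 1 library at 30 weeks moved the median of complex II in A537T between -0.061 and 0.041 and that of complex III between -0.13 and -0.054. In KO it moved Atp5g2 between -0.14 and 0.14, Atp5g3 between -0.23 and 0.017, Cox6b1 between -0.10 and 0.067, Cox6c between -0.00039 and 0.20, Sdha between -0.14 and 0.014, Uqcrc2 between -0.054 and 0.023 and Uqcrh between -0.046 and 0.059. In A537T it moved Atp5g2 between -0.095 and 0.026, Cox6c between -0.053 and 0.24, Cycs between -0.17 and 0.021, Sdha between -0.068 and 0.042 and Sdhc between -0.11 and 0.046. Of the medians, 339 of 360 values under an alternative moved by less than the spread between libraries. This is a weak criterion at 10 weeks, where the spread was wide. The mean level of the 34 genes had an SD of 0.60 (KO table) and 0.59 (A537T table) over the WT libraries there. The shifts of its 10-week medians without 1 WT library, given above, thus count among the 339. The minimum means and the fit without a mean trend leave these fold changes unchanged. The count therefore does not show that the medians are stable.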
